A study of Mus musculus with 7 samples.

Results

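The Hedgehog pathway genes described here are Shh, Ptch1, Smo, Gli1, Gli2, Gli3, Hhip and Sufu, 8 of the 22552 genes in the table. They were chosen by gene symbol for their role in the pathway, and all 8 symbols are present. RNA was sequenced from flow-sorted mouse skin cells at postnatal day 50, in 7 libraries with 1 library per group. Ear epidermis and ear dermis came from Wt/Wt (WT) mice and from Wt/Koa mice, which carry 1 copy of Koa, a dominant allele known for hairy ears. Dorsal epidermis, dorsal dermis and tail dermis came from WT mice. The strain label of every library is CD1/C3H, so the Koa and WT groups share that background. The labels do not say how many animals were pooled or how the sort was gated. For the tail library only the title names the layer. With 1 library per group no difference below has a replicate check, and no test was made.

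Hedgehog ligands such as Sonic hedgehog (Shh) bind the receptor Patched1 (Ptch1), which otherwise holds the membrane protein Smoothened (Smo) inactive. Active Smo releases the Gli transcription factors from their inhibitor Sufu. Gli1, Ptch1 and Hhip, a membrane protein that traps the ligand, are themselves switched on by the pathway and serve as readouts of it. In skin, Shh made by the hair follicle epithelium acts on neighbouring epithelium and on the dermal papilla, the fibroblast cluster at the follicle base, and is needed for follicle growth.

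Levels are in FPKM, a fragment count divided by transcript length and by the library's mapped fragments, so that genes can be compared with each other. Differences between libraries are on the log2(FPKM + 1) scale, which understates the change of genes with low levels. A gene was compared where it reached 1 FPKM in 1 of the 2 libraries and was called where the difference was at least 1 in size. Steps in the low FPKM values gave depths between 31600000 and 40050000 fragments in 6 libraries. The depth of the tail library is unknown. The ratios below carry exact 95% intervals of counting error, from fragments estimated with these depths, and these intervals cover neither animals nor library preparation. The tail column stands apart in other ways: 222 symbols with at least 10 FPKM in the other 6 libraries are listed at 0 there. Xist, an RNA of the inactive X chromosome, stood at 41.52 FPKM there against at most 0.122 FPKM elsewhere. Ddx3y, a gene of the Y chromosome, was listed at 0 there and stood between 33.1 and 38.3 FPKM elsewhere. This is the pattern of a female tail sample and male others. Site, sex and any difference in how the tail column was made cannot be told apart in the tail comparisons. The summed level of 10 fibroblast markers lay between 5498 and 11399 FPKM in the dermal libraries and between 67.1 and 114 FPKM in the epidermal ones. Dermis also held RNA of basal keratinocyte markers: relative to the epidermal library of the same skin, the median marker reached 7.16% in WT ear, 10.7% in Koa ear and 37.7% in dorsal skin. Fewer cells of a type and less RNA per cell cannot be told apart in such bulk samples.

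Shh, the ligand, was a gene of dorsal skin in these libraries. It lies on chromosome 5 from 28456815 to 28467256 (GRCm38, minus strand). It stood at 4.25 FPKM in dorsal epidermis, 1.54 FPKM in dorsal dermis, 0.309 FPKM in Koa ear epidermis, 0.0703 FPKM in WT ear epidermis and 0.0342 FPKM in Koa ear dermis, and was listed at 0 in WT ear dermis and tail dermis. Only the dorsal libraries reached 1 FPKM. In fragments these levels correspond to about 354.6 in dorsal epidermis, 130.9 in dorsal dermis, 28.8 and 7.4 in Koa and WT ear epidermis, and 3.2 in Koa ear dermis. The 0 of WT ear dermis allows a level of up to 0.0313 FPKM (3 fragments, counting error only), so the level in dorsal dermis was at least 49.2-fold higher. Between dorsal and WT ear epidermis the ratio was 60.5 (30.9 to 161). Koa ear epidermis stood above WT ear epidermis by a ratio of 4.40 (2.01 to 12.7), with both levels under 1 FPKM. Koa ear dermis was itself near the floor, and no fold against WT ear dermis is given.

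**Figure D1:**
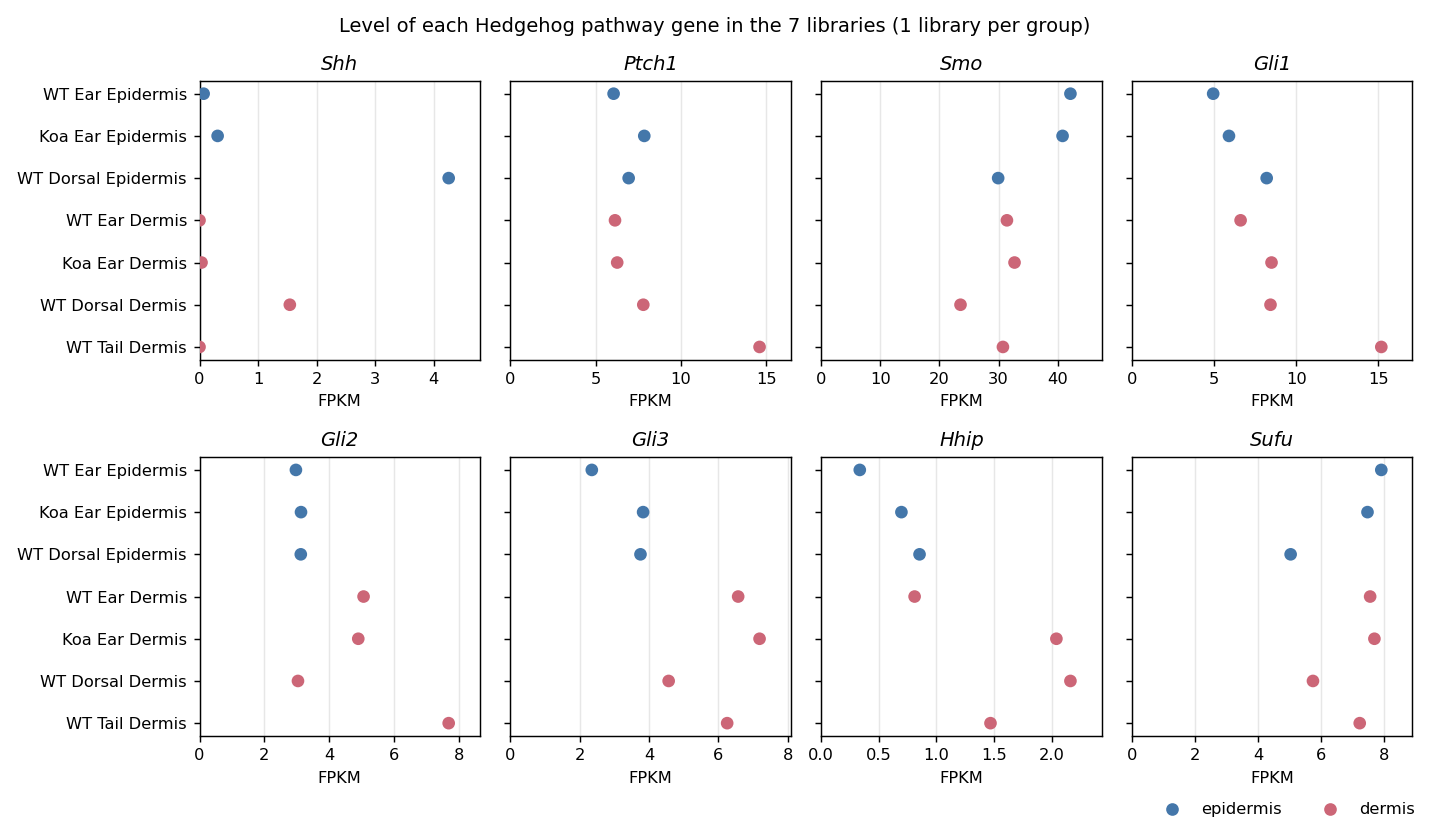
Level in FPKM (horizontal axis, linear from 0, its own scale for each gene) of the 8 genes in the 7 libraries; each point is 1 library, blue for epidermis and red for dermis. Shh stands apart at 4.25 FPKM in dorsal epidermis and 1.54 FPKM in dorsal dermis, while Ptch1 and Gli1 are highest in tail dermis (14.61 and 15.18 FPKM).

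Only dorsal dermis had enough Shh fragments to be set against the keratinocyte markers. There Shh stood at 36.2% of the level in dorsal epidermis (ratio 0.362, 0.294 to 0.444), and the 8 basal keratinocyte markers ranged from 26.5% to 47.6%. In Koa ear dermis, with about 3.2 fragments, the ratio of 0.111 had an interval of 0.0202 to 0.334, too wide to place it. With the median marker share, 37.7% of the epidermal level, subtracted, Shh in dorsal dermis stood at 0. Any gene under that share is set to 0 by the subtraction, and the part of keratinocyte RNA in dermal Shh was not tested. The other 7 genes lay above the marker ranges in all 3 skins, the lowest being Smo in WT ear at 74.5%.

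**Figure D2:**
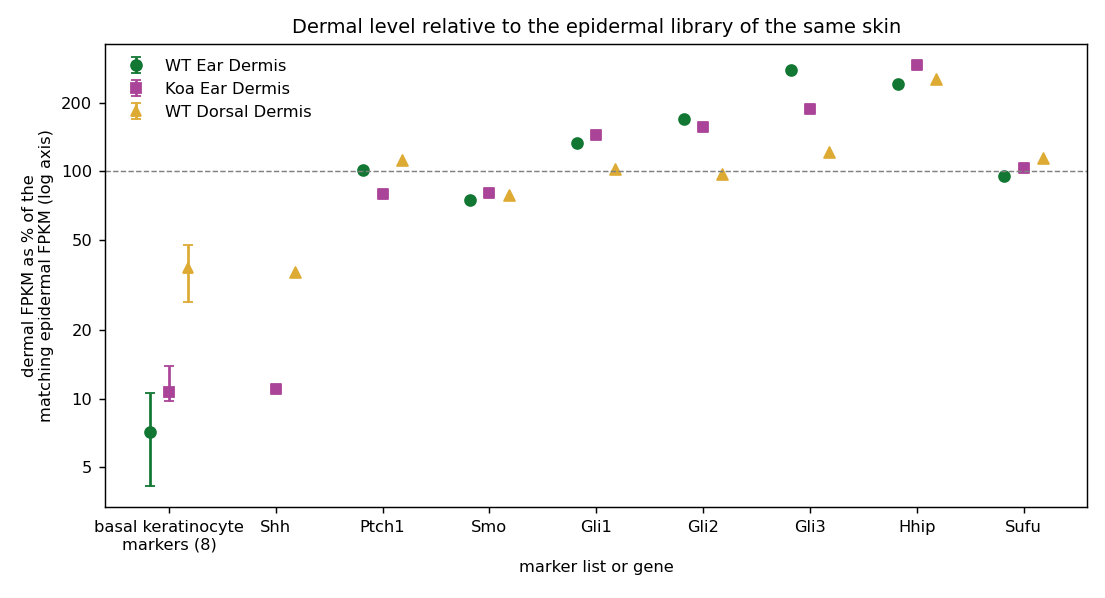
Dermal FPKM as a percentage of the FPKM in the epidermal library of the same skin (vertical log axis), for basal keratinocyte markers (median, with bars from the lowest to the highest of 8) and for each gene; the dashed line marks equal levels, and Shh in WT ear dermis, listed at 0, is not drawn. In dorsal skin Shh lies within the range of the keratinocyte markers, at 36.2%, its Koa ear point rests on about 3.2 fragments, and the other genes lie at 74.5% or above.

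Shh and the genes of growing hair did not have the same order across libraries. The growing follicle list holds keratins of the inner root sheath and hair shaft with trichohyalin and follicle transcription factors. Its 16 genes summed to 212 FPKM in Koa ear epidermis, 77.6 FPKM in dorsal epidermis and 41.1 FPKM in WT ear epidermis. Koa ear epidermis was thus highest for hair genes, and dorsal epidermis was highest for Shh. In dermis the sums were 57.5 FPKM in Koa ear, 44.1 FPKM in dorsal, 9.58 FPKM in tail and 3.60 FPKM in WT ear, where 5 of the 16 genes were listed at 0. Basal keratinocyte markers summed to 20072 FPKM in dorsal epidermis and 18722 FPKM in Koa ear epidermis. Their part in the level of Shh was not tested.

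**Figure D3:**
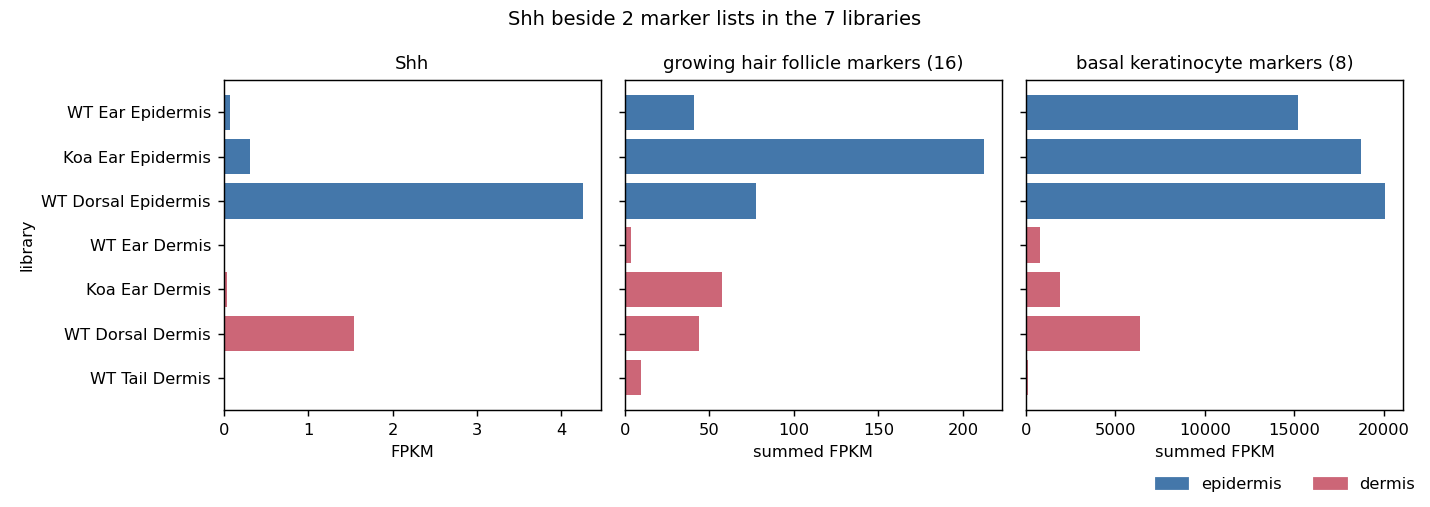
Level of Shh (FPKM) and summed levels of growing hair follicle and basal keratinocyte markers (summed FPKM), as bars from 0 for the 7 libraries, blue for epidermis and red for dermis. Shh is highest in dorsal epidermis (4.25 FPKM), the hair markers in Koa ear epidermis (212 FPKM), and basal keratinocyte markers in the 3 epidermal libraries.

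Smo, the transducer of the signal across the membrane, was the most abundant of the 8 genes in every library. It lies on chromosome 6 from 29735503 to 29761365. It stood at 42.2 FPKM in WT ear epidermis, 40.8 FPKM in Koa ear epidermis, 32.7 FPKM in Koa ear dermis, 31.4 FPKM in WT ear dermis, 30.74 FPKM in tail dermis, 29.9 FPKM in dorsal epidermis and 23.6 FPKM in dorsal dermis. The highest and lowest libraries differed by a factor of 1.79, and in each layer the dorsal library was below both ear libraries. In dorsal against WT ear epidermis the ratio was 0.710 (0.680 to 0.741) and in dermis 0.750 (0.714 to 0.788).

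Ptch1, the receptor, had nearly one level in the 6 libraries of ear and back. It lies on chromosome 13 from 63508328 to 63573598. It stood at 7.85 FPKM in Koa ear epidermis, 7.79 FPKM in dorsal dermis, 6.93 FPKM in dorsal epidermis, 6.26 FPKM in Koa ear dermis, 6.13 FPKM in WT ear dermis and 6.05 FPKM in WT ear epidermis. These 6 values spanned a factor of 1.30, the narrowest range of the 8 genes. Tail dermis stood outside that range at 14.61 FPKM.

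Gli1, the transcription factor that is itself a target, was also highest in tail dermis and had a wider range. It lies on chromosome 10 from 127329882 to 127341974. It stood at 15.18 FPKM in tail dermis, 8.49 FPKM in Koa ear dermis, 8.43 FPKM in dorsal dermis, 8.20 FPKM in dorsal epidermis, 6.61 FPKM in WT ear dermis, 5.90 FPKM in Koa ear epidermis and 4.94 FPKM in WT ear epidermis. Between dorsal dermis and dorsal epidermis the counting interval includes equality (ratio 1.03, 0.942 to 1.12). Scaling these 2 libraries to equal totals shifted the log2 difference by 0.55 towards dermis, which the interval does not cover. Gli1 stood at 1.66 times (1.51 to 1.83) the WT ear level in dorsal epidermis, where Shh stood at 60.5 times.

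Hhip, the ligand trap, never exceeded 2.16 FPKM and had the widest range among the genes other than Shh. It lies on chromosome 8 from 79965851 to 80058006. It stood at 2.16 FPKM in dorsal dermis, 2.04 FPKM in Koa ear dermis, 1.47 FPKM in tail dermis, 0.854 FPKM in dorsal epidermis, 0.811 FPKM in WT ear dermis, 0.696 FPKM in Koa ear epidermis and 0.335 FPKM in WT ear epidermis, a factor of 6.47 from lowest to highest. In each skin the dermal level exceeded the epidermal one, by ratios of 2.42 (1.94 to 3.03) in WT ear, with both levels under 1 FPKM, 2.93 (2.51 to 3.43) in Koa ear and 2.54 (2.18 to 2.96) in dorsal skin. Hhip is also one of 14 dermal papilla markers listed here. WT ear dermis is the only dermal library under 1 FPKM.

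Promoter windows were read for the 6 of 8 genes with a RefSeq promoter entry (GRCm38.p6), as the 250 bases before the start site of that entry. The windows of Ptch1 (chr13:63565736-63565985) and Gli3 (chr13:15463473-15463722) lie inside the spans given here for these genes. Start sites further upstream in them were not read. The consensus Gli binding motif GACCACCCA (reverse complement TGGGTGGTC) was in 0 of the 6 windows and in 0.225% of all 32851 windows of the same length. With 1 mismatch allowed it was again in 0 of 6, and in 5.79% of all. Its inner letters CCACCC, which read GGGTGG on the other strand, were in 4 of the 6, those of Gli2, Gli3, Hhip and Smo, and in 28.1% of all windows. The share of G and C bases was 67.2% to 76% in these 4 windows, 78.4% in that of Ptch1 and 54% in that of Sufu. The set of all windows was not matched for this share. The windows of Hhip, which had the widest range of these 6 genes, and of Gli2, which holds these letters on both strands, are shown 5′ to 3′ with those letters in capitals. They lie at chr8:80058009-80058258 and chr1:119053620-119053869, both on the minus strand.
Hhip: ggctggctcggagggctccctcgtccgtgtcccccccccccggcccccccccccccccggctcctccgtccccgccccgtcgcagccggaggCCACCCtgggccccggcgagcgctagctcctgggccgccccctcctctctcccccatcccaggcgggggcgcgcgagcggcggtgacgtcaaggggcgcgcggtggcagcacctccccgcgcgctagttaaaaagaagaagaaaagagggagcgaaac
Gli2: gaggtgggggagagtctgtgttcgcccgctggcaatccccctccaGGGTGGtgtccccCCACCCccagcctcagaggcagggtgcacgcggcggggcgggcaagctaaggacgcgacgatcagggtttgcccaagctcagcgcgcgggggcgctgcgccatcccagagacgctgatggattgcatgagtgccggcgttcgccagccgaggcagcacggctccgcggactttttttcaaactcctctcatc
A match of these letters is a description of the window, and binding was not measured.

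Gli2 and Gli3, which activate or repress targets depending on the signal, stood higher in ear dermis than in ear epidermis and were closer between the layers of the back. Gli2 (chromosome 1, 118834132 to 119053619) stood at 7.69 FPKM in tail dermis, 5.06 FPKM in WT ear dermis, 4.90 FPKM in Koa ear dermis, 3.13 FPKM in Koa ear and dorsal epidermis, 3.04 FPKM in dorsal dermis and 2.98 FPKM in WT ear epidermis. Gli3 (chromosome 13, 15463235 to 15730026) stood at 7.18 FPKM in Koa ear dermis, 6.57 FPKM in WT ear dermis, 6.25 FPKM in tail dermis, 4.56 FPKM in dorsal dermis, 3.83 FPKM in Koa ear epidermis, 3.75 FPKM in dorsal epidermis and 2.35 FPKM in WT ear epidermis. The dermal level of Gli3 was 2.80 times (2.57 to 3.05) the epidermal one in WT ear and 1.22 times (1.12 to 1.33) in dorsal skin. For Gli2 these ratios were 1.70 (1.55 to 1.87) and 0.972 (0.869 to 1.09). The dorsal dermal library is also the one with the most keratinocyte RNA, 37.7% by the markers, and the part of that share in these ratios was not tested.

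Sufu, the inhibitor of the Gli factors, varied least after Ptch1 among ear and back. It lies on chromosome 19 from 46396896 to 46488804. It stood at 7.90 FPKM in WT ear epidermis, 7.69 FPKM in Koa ear dermis, 7.55 FPKM in WT ear dermis, 7.47 FPKM in Koa ear epidermis, 7.22 FPKM in tail dermis, 5.74 FPKM in dorsal dermis and 5.03 FPKM in dorsal epidermis. Both dorsal libraries lay below the other 5, with a ratio of 0.636 (0.579 to 0.698) to WT ear in epidermis and 0.760 (0.694 to 0.832) in dermis.

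The Koa allele was set against WT in each layer of the ear. In dermis none of the 7 genes compared was called, where 2.78% of all genes were (1.71% higher and 1.07% lower). Their median difference was 0.06, against -0.003 over all genes. Hhip differed most, at 2.04 against 0.811 FPKM, a ratio of 2.52 (2.18 to 2.92) and a difference of 0.75. Gli1 followed, at 8.49 against 6.61 FPKM with a ratio of 1.29 (1.18 to 1.40). For Ptch1 (1.02, 0.963 to 1.08), Smo (1.04, 0.997 to 1.09), Gli2 (0.968, 0.891 to 1.05) and Sufu (1.02, 0.938 to 1.10) the counting interval includes equality. With keratinocyte RNA subtracted, Hhip differed by 0.73 and Ptch1 by -0.06. Markers of several cell types also differed between these libraries: 9 of 11 growing follicle genes were higher in Koa (median 2.204), 4 of 8 basal keratinocyte markers were higher (median 1.01), and 2 of 14 dermal papilla markers were higher (median 0.38). Of mast cell markers 5 of 6 were lower (median -1.22), as was 1 of 6 myeloid markers, and 2 of 8 Schwann cell markers were higher. Their part in the Hhip difference was not tested.

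In ear epidermis none of the 6 genes compared was called either, where 3% of all genes were (2.15% higher and 0.854% lower), and their median difference was 0.14. The Koa level of Gli3 was 3.83 FPKM and the WT level 2.35 FPKM, a ratio of 1.63 (1.48 to 1.79). Ptch1 had a ratio of 1.30 (1.23 to 1.37) and Gli1 of 1.19 (1.08 to 1.32). Hhip stayed under 1 FPKM in both, at a ratio of 2.08 (1.65 to 2.62). Smo (0.968, 0.933 to 1.01) and Sufu (0.945, 0.873 to 1.02) had intervals that include equality. Of the other genes on the pathway lists, none of 40 in dermis and none of 38 in epidermis was called. None of the 8 genes lies on chromosome 15, the chromosome of the Koa inversion.

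**Figure D4:**
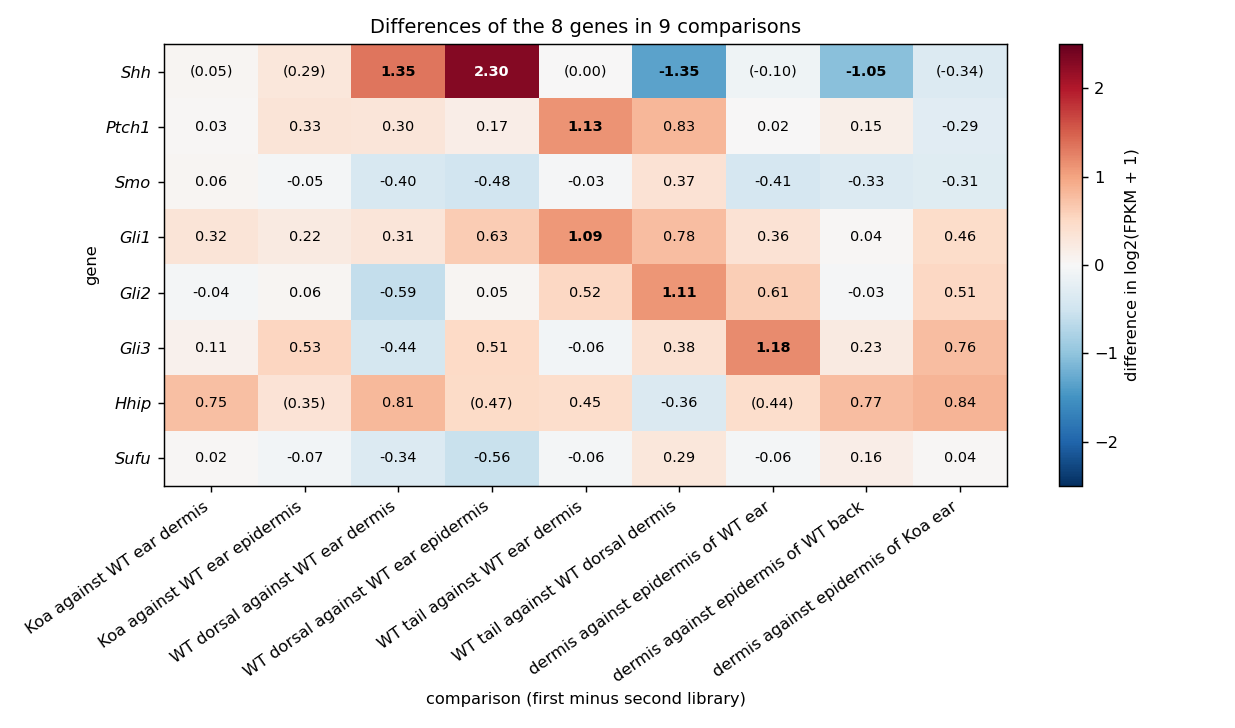
Difference in log2(FPKM + 1), first minus second library, of the 8 genes (rows) in 9 comparisons (columns); bold values reach 1 in size and are called, and values in brackets belong to genes under 1 FPKM in both libraries. The Koa columns hold no called value, and Shh carries the widest difference, 2.30 in dorsal against ear epidermis.

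Dorsal skin was set against ear skin in WT mice, and Shh was the only gene of the 8 called in either layer. In dermis 1 of 8 was called, where 18.8% of all genes were (11.7% higher and 7.05% lower), with a difference of 1.35 for Shh. With the keratinocyte share of each dermal library subtracted, Shh stood at 0 in both libraries and was no longer called. Then 2 of 7 were called (Smo and Gli2, lower), where 35.9% of all genes were, 666 higher and 4179 lower. Hhip stood at 2.67 times (2.31 to 3.10) the ear level, a difference of 0.81, and Ptch1 and Gli1 at 1.27 (1.20 to 1.35) and 1.28 (1.17 to 1.39) times. Gli2 and Gli3 had ratios of 0.600 (0.544 to 0.662) and 0.695 (0.646 to 0.748). The readouts Gli1, Ptch1 and Hhip had ratios above 1, and Smo, Gli2, Gli3 and Sufu below 1. Under the same subtraction, which lowered most genes in dorsal dermis, the differences of Ptch1 and Gli1 were -0.12 and -0.19 and that of Hhip was 0.67, so the direction of Ptch1 and Gli1 is not settled.

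In epidermis 1 of 7 was called, where 16.9% of all genes were (11.5% higher and 5.47% lower), with a difference of 2.30 for Shh. Gli3 and Gli1 stood at 1.60 (1.45 to 1.76) and 1.66 (1.51 to 1.83) times the ear level, and Ptch1 at 1.15 (1.08 to 1.21) times. With libraries scaled to equal totals the difference of Ptch1 turned from 0.17 to -0.21, and those of Gli1 and Shh were 0.24 and 1.88. Hhip stood at 2.55 times (2.03 to 3.20), under 1 FPKM in both. Between the same libraries 6 of 7 sebaceous gland markers were lower (median -2.12). Higher were 5 of 9 hair follicle stem cell, 6 of 13 growing follicle, 4 of 8 suprabasal keratinocyte and 5 of 6 dermal papilla markers. Their part in the level of Shh was not tested.

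The co-receptors that hold the ligand at the cell surface were lower in dorsal than in ear dermis. Boc stood at 20.9 against 150 FPKM (difference -2.79), Gas1 at 53.9 against 166 FPKM (-1.60) and Cdon at 20.7 against 52.6 FPKM (-1.31). Scube1 and Scube2, of the Scube family of secreted proteins that helps release the ligand, stood at 0.924 against 6.75 FPKM and 1.89 against 5.14 FPKM. With the cilium genes Rpgrip1l and Dync2h1 these made 7 of 42 other pathway genes called lower and none higher, where 7.05% and 11.7% of all genes were lower and higher. Their median difference was -0.43 against -0.05 over all genes. Of fibroblast markers 4 of 10 were also called lower in dorsal dermis (median -0.88), as were 11 of 12 cartilage markers (median -3.74), and their part in these differences was not tested.

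Other pathway genes went both ways in dorsal against ear epidermis. The response gene Foxl1 (1.37 against 0.162 FPKM), the Gli regulator Spop (71.8 against 34.3 FPKM) and the cilium-base protein Evc2 (8.29 against 3.47 FPKM) were called higher. Called lower were the cyclin Ccnd2 (33.8 against 94.4 FPKM), Gpr161, a ciliary receptor that restrains the pathway (2.98 against 7.24 FPKM), and Dync2h1 (1.19 against 4.10 FPKM). That is 3 higher and 3 lower of 39, where 16.9% of all genes were called, 11.5% higher and 5.47% lower. With libraries scaled to equal totals the split was 0 higher and 8 lower, and Foxl1, Spop and Evc2 were no longer called. Under that scaling 836 of all 12167 genes compared were higher and 1739 lower.

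**Figure D5:**
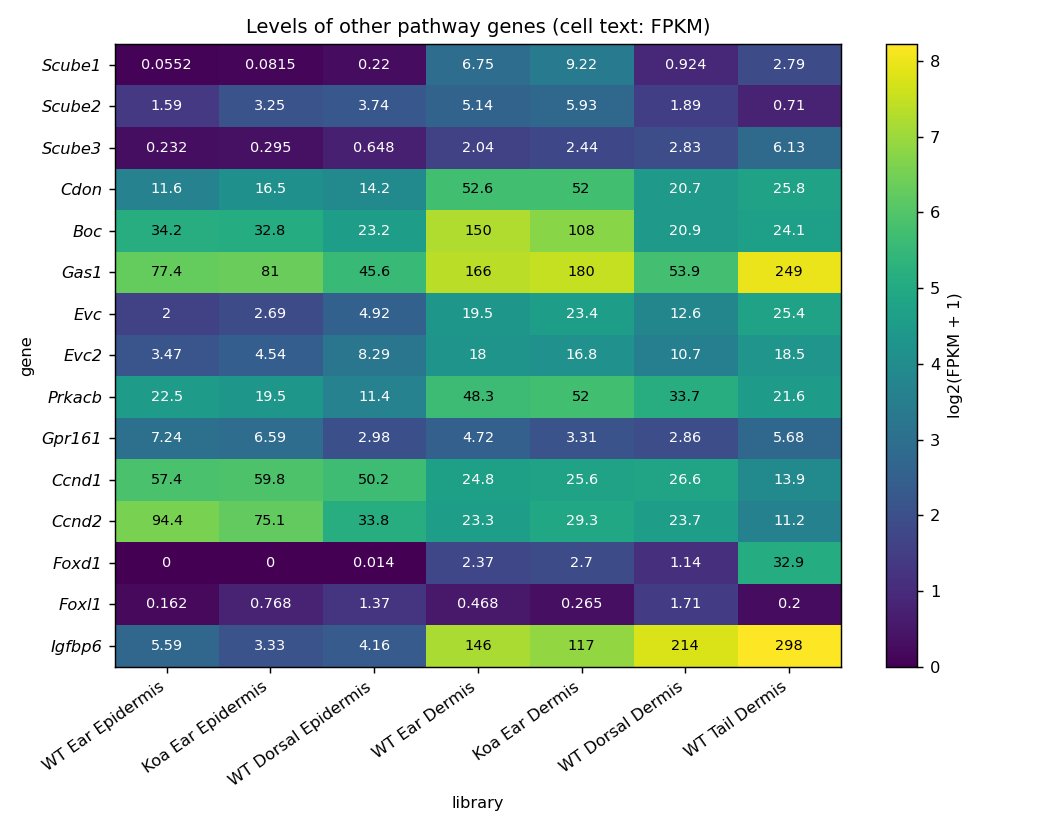
Levels of 15 other pathway genes (rows) in the 7 libraries (columns), coloured by log2(FPKM + 1) with the FPKM written in each cell; the 15 were chosen after their values were seen. Boc is highest in ear dermis (150 FPKM in WT, 108 FPKM in Koa) and Foxd1 in tail dermis (32.92 FPKM).

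Tail dermis was set against WT ear dermis and dorsal dermis. Site, sex and any difference in how the tail column was made cannot be told apart in these comparisons. Ptch1 (14.61 against 6.13 FPKM, difference 1.13) and Gli1 (15.18 against 6.61 FPKM, difference 1.09) were higher than in WT ear dermis, 2 of 7 called, where 33.3% of all genes were called, 6.32% higher and 27% lower. Over all genes the median difference was -0.51, so these 2 genes went against the direction of most. Against dorsal dermis Gli2 was higher (7.69 against 3.04 FPKM, difference 1.11) and Shh was listed at 0 against 1.54 FPKM, 2 of 8 called, where 36.1% of all genes were (7.05% higher and 29% lower). Ptch1 and Gli1 differed by 0.83 and 0.78 there and were called once the median difference of all genes was set to 0 (by 1.16 for Ptch1) or totals were made equal (by 1.09 for Ptch1 and 1.04 for Gli1). Beside the Shh call, basal keratinocyte markers summed to 131 FPKM in tail dermis against 6387 FPKM in dorsal dermis. The floor of a 0 in the tail column is unknown, and the part of keratinocyte RNA in the Shh difference was not tested. Smo, Gli3 and Sufu differed from WT ear dermis by -0.03, -0.06 and -0.06.

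The other response genes went both ways in tail dermis. The forkhead factor Foxd1 stood at 32.92 FPKM there and at 2.37 FPKM in WT ear dermis, and Igfbp6, an insulin-like growth factor binding protein, at 297.86 against 146 FPKM. Of the 7 response genes compared with WT ear dermis 4 were called higher and none lower, Gli1 and Ptch1 among them. The cyclins Ccnd1 (13.9 against 24.8 FPKM) and Ccnd2 (11.17 against 23.3 FPKM) differed by -0.79 and -0.997 and were not called. Against dorsal dermis 1 of 9 response genes was higher (Foxd1) and 2 were lower (Ccnd2 and Foxl1), with a median difference of -0.36. Outside the 8 members, 4 of 41 pathway genes were higher and 14 lower than in WT ear dermis. Of all genes 6.32% were higher and 27% lower in that comparison. Among the 14, Boc stood at 24.15 against 150 FPKM and Rpgrip1l at 1.84 against 9.48 FPKM. With the median difference of all genes set to 0 the split of these pathway genes was 6 higher and 5 lower. Disp1, the ligand exporter and one of the 4 called higher, was listed at 3.14 FPKM in tail. It was listed at 0 in the other 6 libraries, so no fold is given. Whether the gene was quantified in those 6 columns cannot be told, so its call is uncertain. Basal keratinocyte markers summed to 131 FPKM in tail dermis against 775 FPKM in WT ear dermis, melanocyte markers to 1791 against 131 FPKM and dermal papilla markers to 1013 against 365 FPKM. In the dermal papilla sums Crabp1 alone stood at 652.81 against 52.7 FPKM, and 5 of 14 of these markers were called higher and none lower (median 0.59). Cartilage markers summed to 46.4 against 1018 FPKM (12 of 12 lower) and myeloid markers to 84.1 against 948 FPKM (4 of 6 lower), and 5 of 7 endothelial markers were higher. Their part in the levels of Ptch1, Gli1 and the other pathway genes was not tested.

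The layers were compared within each skin. In WT ear 1 of 6 genes was called, where 35.6% of all genes were (21.3% higher and 14.4% lower): Gli3, higher in dermis by 1.18. In Koa ear none of 7 was called, where 33.1% of all genes were (20.4% higher and 12.7% lower), and Hhip (0.84) and Gli3 (0.76) had the widest differences. In dorsal skin 1 of 8 was called, where 24.4% of all genes were (16.1% higher and 8.27% lower): Shh, lower in dermis (difference -1.05). Ptch1 and Gli1 were present in both layers of each skin, with ratios of dermis to epidermis from 0.798 (Ptch1, Koa ear) to 1.44 (Gli1, Koa ear). Scaling to equal totals shifted log2 differences towards dermis, by 0.33 in WT ear, 0.18 in Koa ear and 0.55 in dorsal skin. Of the other pathway genes 13 of 41 were called higher in dermis and 2 lower in WT ear, and as many in Koa ear. Boc, Gas1, Cdon, Scube1, Scube3, Evc and Evc2, the last a pair of proteins at the base of the cilium, were among the 13 in both. Ccnd1 and Ccnd2 were the 2 that were lower in dermis, at 24.8 and 23.3 FPKM in WT ear dermis against 57.4 and 94.4 FPKM in epidermis. In dorsal skin 6 of 41 were higher in dermis and none lower.

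Genes with the most similar pattern were ranked by Pearson's r of log2(FPKM + 1) over the 6 libraries without tail, among 11392 genes. The 6 points share libraries and depth, so r is a description. For Shh they were Ttc9, Hbegf, Lipg, Bbc3 and Phf13 (r from 0.999 to 0.997), with Hbegf, an EGF receptor ligand, at 104 FPKM in dorsal and 4.72 FPKM in WT ear epidermis. For Hhip they were Lef1, Anxa5, Nt5dc3, Aldh7a1 and Btd (0.990 to 0.970). Lef1, a partner of beta-catenin and also a dermal papilla marker, stood at 6.30, 5.95 and 2.62 FPKM in dorsal, Koa ear and WT ear dermis. For Gli1 they were B4galnt1, Terf2, Sec62, Spop and Pi15 (0.995 to 0.987), and for Ptch1 Cdk12, Myh9, Lyplal1, Neurl4 and Nod1 (0.934 to 0.910). Among the 8 genes themselves r was 0.86 for Gli1 with Hhip, 0.87 for Gli2 with Gli3, 0.52 for Shh with Gli1 and -0.98 for Shh with Sufu. The Shh values rest on the pair of dorsal libraries, since its other 4 values lie under 1 FPKM.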

How the data were processed

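Per the submitters' processing notes, the authors used TopHat2 2.0.13 and Cufflinks 2.2.1, with the builds GRCm38 and mm9; the role of each build and the annotation are not given in the sources used here. The deposited values are FPKM per gene symbol; 2 misspelled column names were matched to samples by title, and the tail column carries at most 2 decimals. Gene positions come from GENCODE M21 (GRCm38).

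Python 3.11.15 with pandas 2.3.3, numpy 2.4.6 and scipy 1.17.1 was used. Differences used a pseudocount of 1, a filter of 1 FPKM in 1 of the 2 libraries and a threshold of 1 on the log2 scale, over all genes but Col1a1, Col1a2 and Col3a1, very abundant collagens for which some dermal libraries hold a 0, as after a failed estimate. Depth was the number of fragments that best put low values of single-transcript genes on whole numbers, with 210 nt taken off each length. Between 76.5% and 79.7% of the values used lay within 0.1 of a whole number, where 20% would without steps. Fragments of a gene used its longest transcript, a simplification for genes with several. The depth and size rules were checked on simulated data. Named genes are all 8 members, up to 4 called genes per pathway list and comparison by size, and the 5 most similar genes for 4 members; pathway genes that were not called, list members beyond this rule and the 15 genes drawn together were chosen after their values were seen. One gene of the pathway lists is not reported here and is left out of their counts. The members and lists were chosen with earlier results of these data known. Alternatives were the pseudocount, the filter, 2 scalings and the subtraction of keratinocyte RNA.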

Additional observations from a re-analysis of the deposited data

How the results depend on the processing

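No called member changed direction under any alternative, but few alternatives could have shown such a change. Another pseudocount or filter cannot turn a sign, and the 2 scalings shifted differences by less than the threshold of 1. Under the subtraction Shh in dorsal against ear dermis stood at 0 in both libraries and had no direction left. Counts of members called moved as follows. At a pseudocount of 0.1 there was 1 (Hhip) between Koa and WT ear dermis and 1 (Hhip) between the layers of Koa ear, against 0 in each. Dorsal against ear dermis and the layers of dorsal skin then had 2 each (Shh and Hhip), against 1. Other pathway genes numbered 11 rather than 7 in dorsal against ear dermis, and 16 rather than 7 in tail against dorsal dermis. At a pseudocount of 5 no member was called: 0 in dorsal against ear dermis and epidermis, tail against ear and dorsal dermis, and the layers of WT ear and dorsal skin. Pathway genes fell to 3, 1, 7, 3 and 2 in dorsal against ear dermis and epidermis, tail against ear and dorsal dermis, and the dorsal layers (main counts 7, 6, 18, 7 and 6). A filter of 5 FPKM removed Shh and left 0 in both dorsal comparisons and the dorsal layers, and 1 in tail against dorsal dermis.

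Keratinocyte RNA subtracted, dorsal against ear dermis had 2 members (Smo and Gli2 in place of Shh) of 7 and 18 pathway genes of 41, where 35.9% of all genes were called. The deposited totals differ between libraries: equal totals shifted the difference by -0.44 in dorsal against ear epidermis and by 0.55 between the dorsal layers, where Hhip was called in place of Shh. Tail against dorsal dermis had 4 members with equal totals and 4 with the median difference set to 0. With the latter, pathway genes numbered 11 and 11 in tail against ear and dorsal dermis, and the dorsal layers had 0 members. Of all the genes called, 67.7% were higher in dorsal against ear epidermis, and 32.5% with equal totals. In dermis this share of calls was 62.5%, 47.3% with equal totals and 13.7% with keratinocyte RNA subtracted. Between layers it was 66.1% and 92.3% with equal totals in dorsal skin and 59.7% and 72.5% in WT ear. With the median at 0 it moved from 19.0% to 42.1% in tail against ear dermis and from 19.5% to 34.8% against dorsal dermis. Without genes listed at 0 in tail, an alternative chosen after seeing the data, 1 member was called in tail against dorsal dermis. The other 87 counts stayed within 1.5 times. Over all 7 libraries 1 of the 5 similar genes was shared for Shh, 2 for Hhip and 0 for Gli1 and Ptch1. No paired analysis was possible because each group has 1 library. Depth limits Shh in ear, at 28.8 fragments or fewer.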
